A study of Mus musculus with 18 samples.

Results

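The data described here are the 6 RNA-seq libraries of CD8 T cells that differentiated in complete medium, the control medium of the study, between 24 h and 72 h after activation. They were chosen by their labels alone, as the 3 control libraries of 72 h and the 3 control libraries of 24 h, and are 6 of 18 samples in all. Both groups hold wild type C57BL/6N cells from lymph nodes and spleen, labelled as male and aged 8 to 12 weeks, that had been activated as naive CD8 T cells on plate-bound antibodies against CD3 and CD28. For such cultures the methods of the study describe isolation of naive cells with a kit and the addition of mouse IL-2 and mouse IL-12, and both groups share these. The early time, 24 h, is the activation phase of the culture and the late time, 72 h, the differentiation phase. Another 3 control libraries of 4 h enter the fit of all 18 libraries and are otherwise shown as levels, and 6 libraries of cells kept without asparagine (Asn restriction) for 24 h and 72 h serve as the second time course. Whether a library is a separate culture or a pool of mice is not given in the sources used here, and the p-values below measure only the spread between these libraries, which may be technical.

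The sex-linked transcripts went against the labels, and this touches the whole comparison. Xist, the long non-coding RNA that coats the inactive X chromosome of female cells, lies at chromosome X, 103460366 to 103483254 of GRCm38. It was read at 342, 346 and 359 CPM (counts scaled to library size with TMM factors) in the 3 control libraries of 24 h and at 0.0557, 0 and 0.05997 CPM in those of 72 h. The Y-linked genes Ddx3y, Eif2s3y, Kdm5d and Uty had no counts in any 24 h library of either medium, while their summed counts were 1720 to 2895 in the control libraries of 72 h and 2793 to 5629 in those of 4 h. The 24 h libraries thus show the pattern known from female cells and the 4 h and 72 h libraries that of male cells, although all are labelled male. Time and the sex of the donors, and with it the mice and the cultures, cannot be told apart in the comparison of 72 h with 24 h. Of 4 X-linked genes known to escape X inactivation, Kdm6a fell from 71.7 to 30.1 CPM. Eif2s3x and Ddx3x fell from 449 to 186 CPM and from 1088 to 294 CPM. Kdm5c had 225 and 239 CPM and did not pass (adjusted p = 0.18, edgeR, and 0.0412 and 0.042 without control 72 h replicates 1 and 3). At 4 h, in control libraries of the male pattern, Ddx3x had 19269, 13220 and 25794 counts (total counts 18097923, 11773164 and 22172185). At 24 h it had 21284, 20672 and 23015 (20395869, 18409613 and 20060026 in total). Relative to total counts, Ddx3x was thus about as high at 4 h as at 24 h. Eif2s3x had 4583, 2973 and 5852 counts at 4 h and 8692, 8778 and 9327 at 24 h. Kdm6a had 841, 606 and 1100 counts at 4 h and 1530, 1313 and 1445 at 24 h. Unlike Ddx3x, both Eif2s3x and Kdm6a were lower at 4 h than at 24 h relative to total counts. Without the genes of chromosomes X and Y, a setting added after the data were seen, 10198 of 14423 genes passed, with 5140 that rose and 5058 that fell.

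**Figure D1:**
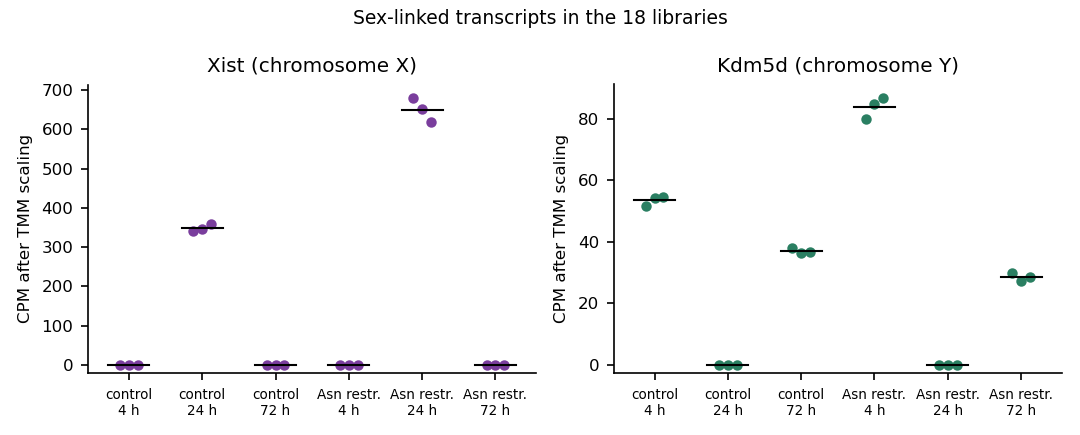
Xist and the Y-linked Kdm5d as CPM after TMM scaling in each of the 18 libraries, 3 a group, with the group mean as a line. Xist stands at 342 to 359 CPM in the control libraries of 24 h and at most 0.0600 CPM in those of 72 h, and Kdm5d is at 0 in every 24 h library of both media.

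Total counts, spike-ins included, were 18409613 to 20395869 in the 24 h libraries and 11576889 to 17267141 in the 72 h libraries. Control 72 h replicate 2 was the shallowest library and gave 0.439% of its counts to mitochondrial genes, against 0.803 and 0.894% in the other 72 h libraries and 0.932 to 0.989% at 24 h. No libraries of 1 group were alike within sampling noise when their counts were set against each other by chi-square. Markers of CD8 T cells summed to 1713 to 1721 CPM at 24 h and 1862 to 1914 CPM at 72 h, and Cd4, the coreceptor of helper T cells, was at 1.19 and 0.994 CPM.

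A naive CD8 T cell that meets its antigen receives a signal through the T cell receptor (TCR) and through CD28, grows, enters the cell cycle within about a day and then divides rapidly while it acquires cytokines, granzymes and receptors of an effector cell. Signals of the TCR switch on immediate early transcription factors and MYC, which drives ribosome production and nucleotide synthesis. IL-2 and IL-12 later shape the effector programme through STAT proteins. The comparison of 72 h with 24 h asks how the RNA of the differentiating culture differs from that of the newly activated one.

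Most of the genes measured differed between the times. Of 14871 genes left after edgeR's filter for low counts, 5310 rose and 5213 fell from 24 h to 72 h at a Benjamini-Hochberg adjusted p under 0.05 in edgeR's quasi-likelihood test, fitted to all 18 libraries. That is 70.8% of the genes tested, with 35.7% higher and 35.1% lower at 72 h, and the counts below are to be read against these shares. The median log2 fold change over all genes was -0.02. A change of at least 2-fold was seen in 2686 genes that rose and 2227 that fell. The libraries of both times did not overlap in 70.7% of genes. Here "rose" and "fell" always mean a change from 24 h to 72 h that passed this test, and levels are means of 3 libraries in CPM, with the SD after ± where it is given. A change in a bulk sample cannot tell fewer cells of a type from less RNA per cell.

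Among genes with at least 10 CPM at either time, and beside the 4 Y-linked genes, the largest rises were of genes with next to no RNA at 24 h. Ermn, which encodes an actin-binding protein known from oligodendrocytes, was read at 0.0965, 0.161 and 0 CPM at 24 h and 121, 103 and 130.3 CPM at 72 h. The groups were far apart (adjusted p = 1.94e-24, edgeR), and no fold is given, because the 24 h mean lay under a floor of 3 counts per library. P2rx3, an ATP-gated ion channel, rose from 0.455 to 69.5 CPM, Timp1, an inhibitor of metalloproteinases on the X chromosome, from 0.201 to 50.1 CPM, and Il11, a cytokine of the IL-6 family, from 0.0164 to 26.9 CPM. Gfra1, Sema3b, Chl1 and Dnah3 had no count in the 24 h libraries and stood at 24.4, 22.5, 19 and 15 CPM at 72 h. Set against the same floor, they were at least 162-, 149-, 126- and 99.3-fold higher. Fam171b, Serpinb5 and Myh11 complete the largest rises, with levels of 28.8, 18.8 and 12.5 CPM at 72 h and under 0.1 CPM at 24 h.

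Below Xist, and under the same limit of 10 CPM, the largest falls included those of cytokine, chemokine and interferon-inducible genes. Il2, the growth factor that activated T cells make for themselves, was read at 51, 50.4 and 48.3 CPM at 24 h and 0, 0.0836 and 0 CPM at 72 h. The 72 h libraries lay under the floor of 3 counts per library, so no fold is given (adjusted p = 1.30e-23, edgeR). Xcl1, a chemokine that draws cross-presenting dendritic cells, fell from 323 to 2.83 CPM. The macrophage inflammatory proteins Ccl3 and Ccl4 fell 40.9-fold and 23.3-fold. Slfn2, a Schlafen gene linked to T cell quiescence, stood at 511, 493 and 502 CPM at 24 h and 11.8, 10.9 and 12.4 CPM at 72 h. All 3 libraries of 72 h lay far below those of 24 h, 42.6-fold on average (adjusted p = 6.70e-34). Of interferon-inducible genes, Ifi203 fell from 11.7 to 0.106 CPM, under the floor, and Ifi209, Gm12185 and Iigp1 fell 71.2-, 48.6- and 39.4-fold. Slamf6, a receptor of naive and memory-like T cells, fell from 18 to 0.469 CPM. The B cell coactivator gene Pou2af1 fell from 18.3 to 0.313 CPM, Ms4a4c from 20.7 to 0.634 CPM, Tbc1d30 from 12.4 to 0.409 CPM and the protease inhibitor Serpina3g from 16.9 to 0.585 CPM.

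**Figure D2:**
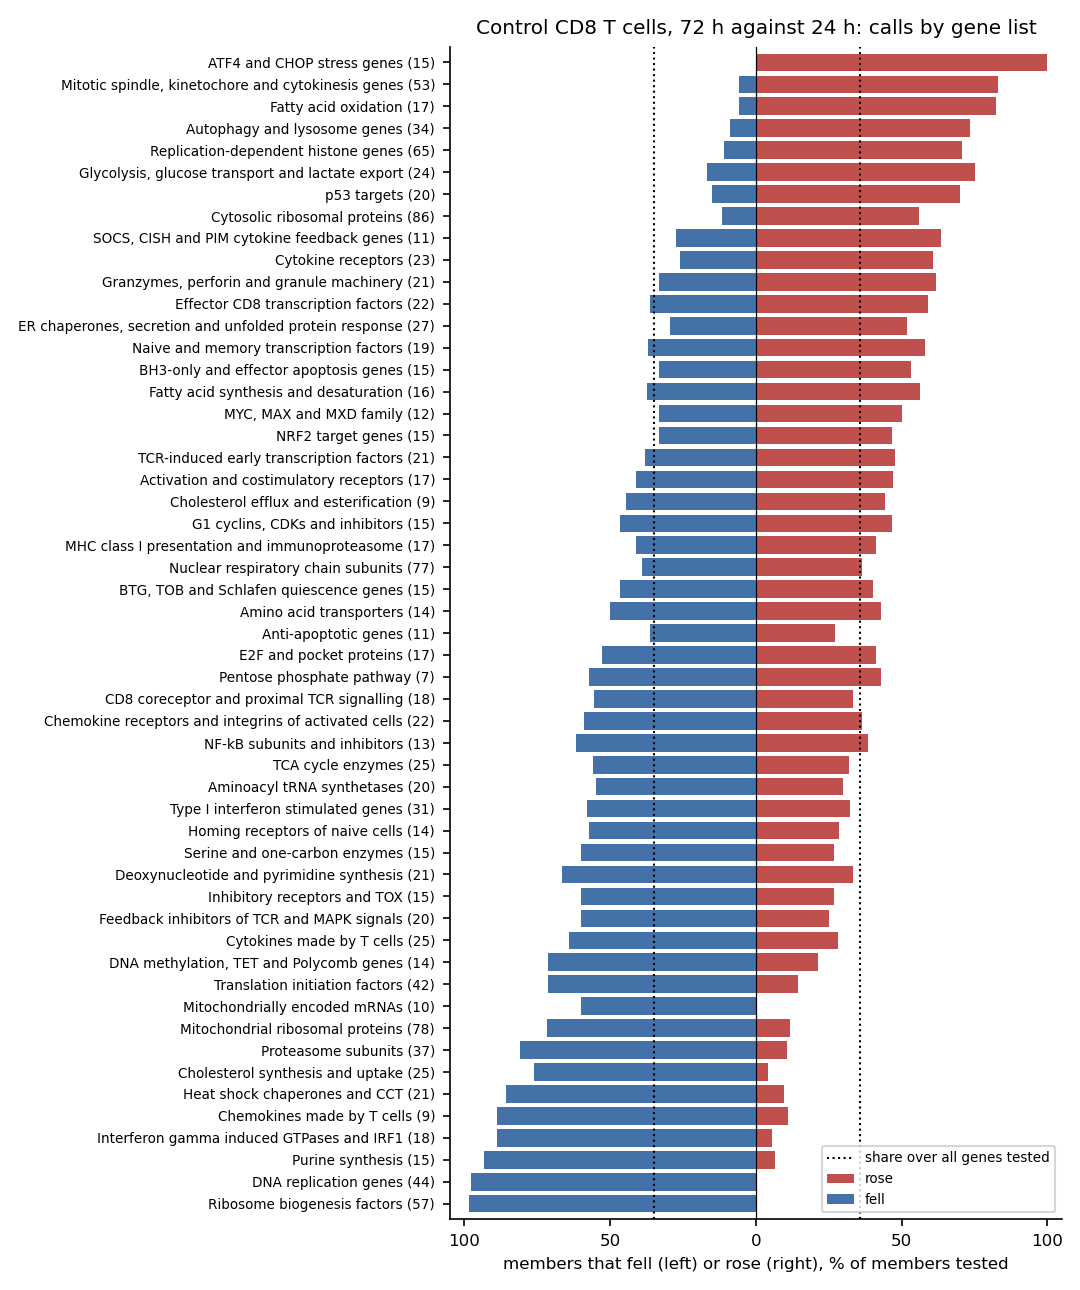
Share of the tested members of 53 gene lists that rose (right, red) or fell (left, blue) from control 24 h to control 72 h, with the number tested in brackets. Dotted lines mark the shares over all genes tested, 35.7% risen and 35.1% fallen. All 15 tested ATF4 and CHOP genes rose and 56 of 57 ribosome biogenesis factors fell.

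Transcription factors that the TCR induces within hours divided into those that fell and those that rose. Of 21 tested, 10 rose and 8 fell, with a median log2 fold change of -0.12. Egr3, which with Egr2 restrains TCR signals, was read at 62.9, 64.3 and 57.9 CPM at 24 h and 6.46, 6.85 and 6.78 CPM at 72 h. It had already been higher at 4 h, at 197 CPM, and fell by 3.21 on the log2 scale from 24 h to 72 h (standard error, SE, 0.08, adjusted p = 7.17e-25). Egr2 fell from 87.7 to 16.3 CPM, the orphan receptor gene Nr4a3 from 262 to 44 CPM and Irf4, whose level follows the strength of the TCR signal, from 839.9 to 186 CPM. Nr4a1, from the same family as Nr4a3, went the other way, from 109 to 290.0 CPM, after 1399.8 CPM at 4 h. Among partners of the AP-1 complex, Batf3, Fosl2 and Junb rose, from 33.7 to 197 CPM, from 71.2 to 327 CPM and from 266 to 719.9 CPM. Nfil3, a basic leucine zipper factor induced by cytokines, rose from 30.7 to 161 CPM. The median of these factors turned to 0.02 without control 72 h replicate 3, with unchanged counts of calls.

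Brakes on the TCR and MAPK pathways fell more often than they rose. Of 20 tested, 12 fell and 5 rose. Spry1, a Sprouty inhibitor of receptor signalling, was read at 53.9, 53.9 and 58 CPM at 24 h and 7.29, 9.11 and 7.56 CPM at 72 h and fell by 2.81 on the log2 scale (SE 0.08). No library of one time reached those of the other. Dusp6, a phosphatase of ERK, fell from 46.6 to 12.4 CPM, Rgs16 from 161 to 41.7 CPM and Cd5, a surface brake whose level reflects TCR signalling, from 487 to 222 CPM. Dusp4, a nuclear MAPK phosphatase, and Rgs2 rose from 60.5 to 174 CPM and from 38.5 to 118 CPM. All 13 genes of NF-kB and its inhibitors passed the test, 8 downward, and Nfkbid, which encodes the nuclear inhibitor IkBNS, fell most, from 66 to 13.1 CPM. Nfkb1, the p50 precursor, fell from 897 to 447 CPM and Rel from 190.1 to 101 CPM. Nfkbia, the classical inhibitor IkB alpha, fell from 152 to 71.6 CPM. Bcl3, a nuclear partner of p50, and the adaptor Traf1 rose, from 18.2 to 90.6 CPM and from 113 to 382 CPM.

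Receptors that mark activation also split. Cd69, the early activation antigen that holds T cells in lymphoid tissue, was read at 334, 347 and 362 CPM at 24 h and 65.5, 50.1 and 69.3 CPM at 72 h. The groups were apart, and it fell by 2.49 on the log2 scale (SE 0.07, adjusted p = 5.37e-24). Tfrc, the transferrin receptor, fell from 1131 to 494 CPM, the costimulatory receptors Cd226 and Cd27 from 145 to 48.2 CPM and from 83.2 to 37.2 CPM. Il2ra, the high-affinity chain of the IL-2 receptor (CD25), rose to 1525 ± 112 CPM from 667 ± 18 CPM (n = 3). Members of the TNF receptor family rose with it. Tnfrsf8 (CD30) rose from 9.24 to 132 CPM, Tnfrsf18 (GITR) from 139 to 529 CPM, Tnfrsf4 (OX40) from 76.8 to 242 CPM and Tnfrsf9 (4-1BB) from 349 to 714 CPM. In the list of 17 activation and costimulatory receptors, 8 rose and 7 fell.

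The TCR complex itself changed less. Of 18 genes of the CD8 coreceptor and proximal signalling, 6 rose and 10 fell, none by more than 3.11-fold, the rise of the signalling adaptor Themis. Cd8a, a chain of the coreceptor itself, was read at 265, 268 and 274 CPM at 24 h and 119, 121 and 122 CPM at 72 h. It fell by 1.16 on the log2 scale (SE 0.04, adjusted p = 1.34e-20), while its partner Cd8b1 fell from 125 to 89 CPM. Cd3d rose from 154 to 319 CPM and Cd3g from 97.7 to 156 CPM, against a fall of Cd3e from 152 to 126 CPM. Lcp2, the adaptor SLP-76, fell from 349 to 175 CPM, and Cd2, an adhesion receptor among the CD8 T cell markers, rose from 135 to 230.3 CPM. Lck, the kinase bound to the coreceptor, had 479 and 512 CPM and did not pass (adjusted p = 0.0637, edgeR), though it did with size factors of DESeq2 (0.0186) and without control 72 h replicate 1 (0.0376) or 3 (0.0122). With spike-in sizes the fall of Cd3e was lost (adjusted p = 0.102).

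Receptors that inhibit T cells were lower at 72 h for 9 of 15 tested and higher for 4. Cd160 fell from 29.9 to 2.46 CPM, Pdcd1, which encodes PD-1, from 59.9 to 30.7 CPM, and the transcription factor gene Tox from 18 to 7.66 CPM. Lag3, which binds MHC class II, was read at 83.1, 81.6 and 83.4 CPM at 24 h and 237, 269 and 237 CPM at 72 h. Its libraries did not overlap, and it rose by 1.58 on the log2 scale (SE 0.07). Ctla4, Tigit and Entpd1 rose as well, from 56.2 to 154 CPM, from 20.1 to 56.9 CPM and from 0.705 to 10.9 CPM.

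Among the cytokines that T cells make, 16 of 25 tested fell and 7 rose. Interferon gamma, encoded by Ifng on chromosome 10, was read at 245, 261 and 243 CPM at 24 h and 702, 769.6 and 692 CPM at 72 h, after 1196 CPM at 4 h. Every 72 h library lay above every 24 h library, and it rose 2.89-fold (log2 fold change 1.53, SE 0.04, adjusted p = 9.23e-24). Tnf, the other inflammatory cytokine of effector CD8 T cells, went down over the same interval, at 75.1, 84.6 and 77.9 CPM at 24 h and 40.7, 32.4 and 40.7 CPM at 72 h. It fell 2.07-fold with no overlap (adjusted p = 8.94e-15). Lta, its neighbour in the MHC region, rose from 88.2 to 311 CPM.

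Il24, an IL-10 family cytokine, showed the largest rise of the list, at 0.965, 0.642 and 0.687 CPM at 24 h and 72, 69.3 and 77 CPM at 72 h. It had no count at 4 h, and its log2 fold change was 6.55 (SE 0.16, adjusted p = 4.65e-23). Il13 fell from 17.1 to 1.15 CPM, Il22 from 12.4 to 0.6997 CPM and Csf2, which encodes GM-CSF, from 14.4 to 1.19 CPM. Tnfsf11, the ligand RANKL, and Tnfsf8, the ligand of CD30, fell from 45.4 to 4.1 CPM and from 114 to 23 CPM. The ligand Tnfsf8 and its receptor Tnfrsf8 thus moved in opposite directions.

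Chemokines fell in 8 of 9 genes tested, with a median log2 fold change of -3.29, which became -4.58 without control 72 h replicate 3. Of the 9, 4 had at least 10 CPM at either time, so the count and the median also rest on genes with low levels. Ccl3 was read at 193, 182 and 186 CPM at 24 h and 4.23, 3.76 and 5.52 CPM at 72 h. All 3 libraries of 72 h were far below those of 24 h (log2 fold change -5.35, SE 0.10). Ccl4 fell from 179 to 7.74 CPM and Ccl9 from 23 to 2.73 CPM. Ccl5, the late chemokine of effector cells, was the 1 gene of the list that rose, from 3.75 to 9.8 CPM. Natural killer cells also make Xcl1, Ccl3 and Ccl4, and the 8 tested markers of natural killer and gamma-delta T cells fell in the same comparison. Their sum went from 70.1 to 71.9 CPM at 24 h to 8.52 to 9.69 CPM at 72 h, most of it Eomes, which CD8 T cells express too. Ncr1 and Klrb1c, which define natural killer cells, went from 1.95 and 1.13 CPM to no count. Their part in the chemokine values was not tested.

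**Figure D3:**
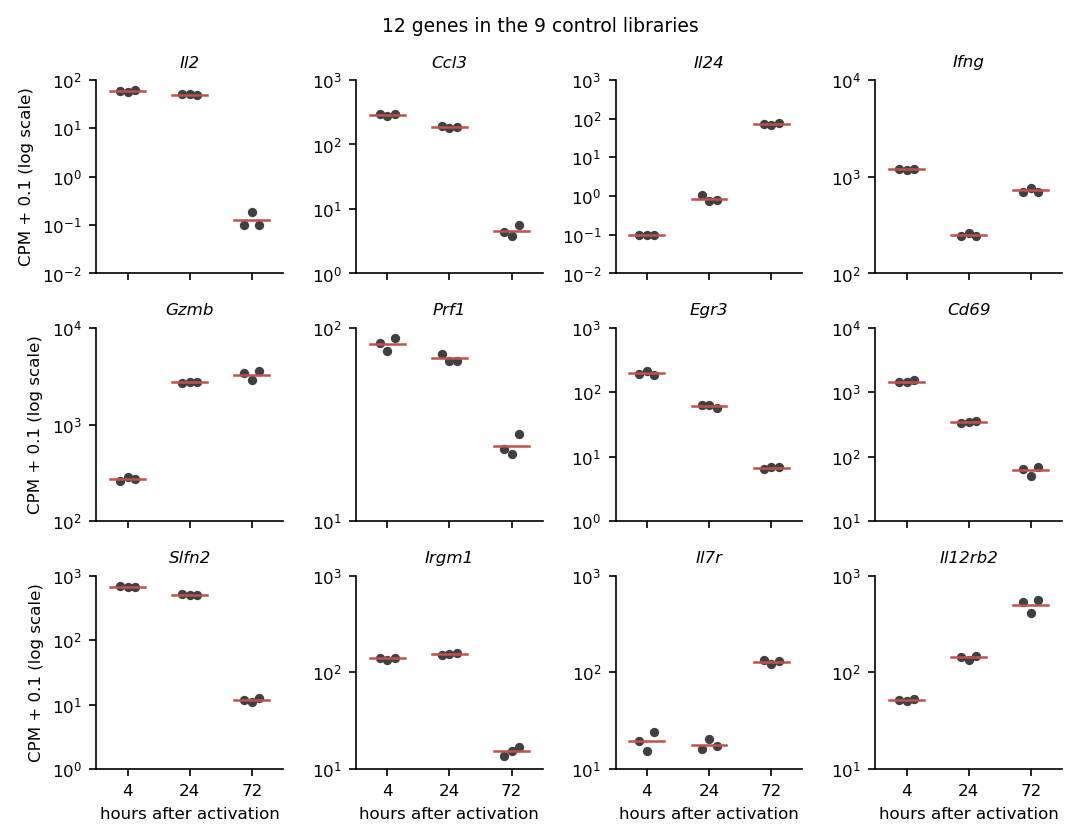
CPM of 12 genes in the 9 control libraries of 4, 24 and 72 h, on a log axis with 0.1 added to each value. Dots are libraries and lines their means. Il2, Ccl3, Egr3, Cd69, Slfn2 and Irgm1 lay lower at 72 h than at 24 h in every library, and Il24, Ifng, Il7r and Il12rb2 higher, as the per-library values in the text give them.

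The cytotoxic machinery changed in parts. Gzmb, the main granzyme of effector CD8 T cells, had reached 2729.8 ± 63.7 CPM by 24 h from 275 CPM at 4 h. At 72 h it was read at 3402, 2865 and 3600.4 CPM, a rise of 1.2-fold over 24 h (log2 fold change 0.27, SE 0.05, adjusted p = 2.96e-05). With library sizes from the spike-ins this rise did not pass (adjusted p = 0.431, edgeR). Prf1, the pore that lets granzymes into the target cell, was read at 73.3, 67.4 and 67.3 CPM at 24 h and 23.5, 22.1 and 28.1 CPM at 72 h. It fell 2.81-fold with no overlap (adjusted p = 6.93e-18). Gzma and Gzmc fell from 28.1 to 1.43 CPM and from 17.5 to 3.92 CPM, and Serpinb9, which protects the killer cell from its own granzyme B, from 635 to 254 CPM. Nkg7, a granule membrane protein, rose from 92.3 to 269 CPM, Stxbp2, a docking factor for granule release, from 73.8 to 149 CPM and Unc13d, which primes granules, from 79.1 to 120.3 CPM. Of 21 genes tested, 13 rose and 7 fell. Granzymes of the Gzmc to Gzmg cluster are close copies, and their counts are uncertain where reads were divided between them.

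Transcription factors of effector cells rose in 13 of 22 genes and fell in 8. Bhlhe40, a repressor that supports interferon gamma production, was read at 93.9, 89.8 and 87.9 CPM at 24 h and 544, 584 and 542 CPM at 72 h. The groups were well apart and it rose by 2.62 on the log2 scale (SE 0.05, adjusted p = 7.32e-29). Hopx, a homeodomain protein of effector and memory T cells, rose from 35.4 to 232 CPM, Runx3, the factor of cytotoxic lineage choice, from 100.5 to 310.4 CPM and Prdm1, which encodes BLIMP-1, from 2.49 to 11 CPM. Hif1a, the oxygen-regulated activator of glycolytic genes, and Stat5b, a signal carrier of IL-2, rose from 288 to 616 CPM and from 150.4 to 380.3 CPM. T-bet, encoded by Tbx21, changed little, from 112 to 143 CPM, and did not pass with spike-in sizes (adjusted p = 0.242). Its relative Eomes was read at 61.4, 57.6 and 57.5 CPM at 24 h and 7.74, 8.27 and 7.14 CPM at 72 h. That fall of 7.66-fold left no overlap (adjusted p = 2.80e-23). Gata3 fell from 17 to 6.06 CPM and Stat4, through which IL-12 acts, from 46.3 to 28.9 CPM.

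Factors of naive and memory cells did not move as a block. Of 19 tested, 11 rose and 7 fell. Klf7, Lef1 and Foxo1 rose, from 39.1 to 117 CPM, from 106 to 193 CPM and from 73.4 to 115 CPM. Bach2, a repressor that keeps T cells from terminal differentiation, fell from 203 to 81.4 CPM, and Klf3 and Klf2, Krüppel-like factors of resting cells, from 32.5 to 7.83 CPM and from 2.89 to 1.02 CPM. Foxp1, another factor of naive cells, fell from 267 to 140.1 CPM. Tcf7, which encodes TCF1, went from 167 to 128 CPM. With library sizes from the spike-ins, 5 rose and 6 fell, and the median was 0.37 in place of 0.45.

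Receptors that guide or sustain naive cells included a pair of large rises. Il7r, the receptor chain for the survival cytokine IL-7, was read at 15.9, 20.2 and 17.3 CPM at 24 h and 134, 121 and 132 CPM at 72 h. It rose by 2.86 on the log2 scale with no overlap (SE 0.11, adjusted p = 5.97e-21). S1pr1, the receptor that lets T cells leave lymph nodes and that CD69 opposes, was read at 4.2, 2.73 and 4.12 CPM at 24 h and 54.2, 46.1 and 48.8 CPM at 72 h and rose 13.4-fold (adjusted p = 9.54e-23). Both genes stood above their 4 h levels of 19.6 and 9.1 CPM. Ccr7, the chemokine receptor of entry to lymph nodes, fell from 287 to 159 CPM. Over the 14 homing genes of naive cells, 4 rose and 8 fell. The integrin chain Itga6 and Dapl1 fell from 48.1 to 24.6 CPM and from 22.3 to 10.5 CPM.

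Chemokine receptors and integrins of activated cells fell in 13 of 22 and rose in 8. Of the 22, 11 had at least 10 CPM at either time. Without the genes of chromosomes X and Y, 12 of 21 fell and 8 rose, at a median log2 fold change of -0.20 in place of -0.47. Cxcr6, a receptor of tissue-resident cells, fell from 16.2 to 2.16 CPM, and the integrin beta 1 gene Itgb1 from 368 to 177 CPM. Cxcr4 rose from 1.37 to 11.9 CPM, Itgb7, a partner of gut-homing integrins, from 65.5 to 186 CPM, and Selplg, the ligand of P-selectin, from 128 to 319 CPM. The X-linked Cxcr3, the receptor linked to type 1 responses, fell at low levels, from 6.38 to 3.77 CPM.

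Receptors for cytokines tended upward, 14 of 23 rising and 6 falling. Without the genes of chromosomes X and Y, 14 of 22 rose and 5 fell. Il12rb2, the inducible chain of the IL-12 receptor, was read at 145, 135 and 149 CPM at 24 h and 533, 413 and 556 CPM at 72 h. No 72 h library came near those of 24 h, and it rose 3.51-fold (log2 fold change 1.81, SE 0.07, adjusted p = 3.54e-20). Il18r1, a chain of the receptor for IL-18, rose from 7.75 to 89.8 CPM, Il1rl1, the receptor for IL-33, from 2.21 to 12.7 CPM, and Ifngr1, the ligand-binding chain of the interferon gamma receptor, from 31 to 87.7 CPM. Its partner chain Ifngr2 fell from 14.3 to 5.21 CPM. The X-linked Il2rg, the gamma chain shared by the receptors of IL-2 and IL-7, fell from 116 to 60.2 CPM. Feedback genes of cytokine signals rose in 7 of 11, with Socs3 from 34.8 to 143 CPM and Socs2 from 9.26 to 32.5 CPM and Socs7 from 66.9 to 96.8 CPM, and fell in 3, with the kinase gene Pim3 from 147 to 70.3 CPM. With spike-in sizes 3 rose and 3 fell.

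Genes tied to quiescence went both ways. Tsc22d3, the X-linked glucocorticoid-induced leucine zipper GILZ, was read at 12.5, 13.1 and 11.8 CPM at 24 h and 116, 122.7 and 111 CPM at 72 h. It rose by 3.22 on the log2 scale without overlap (SE 0.07). Pik3ip1, an inhibitor of PI3K, rose from 5.41 to 20.7 CPM and Btg1, an antiproliferative gene, from 208 to 338 CPM. Besides Slfn2, the Schlafen genes Slfn1 and Slfn8 fell, from 21.8 to 1.74 CPM and from 24.5 to 5.54 CPM, and the thymocyte gene Tespa1 from 31.7 to 3.38 CPM. Of 15 tested, 6 rose and 7 fell.

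Although Ifng itself rose, the GTPases that interferon gamma induces were lower at 72 h. These immunity-related GTPases and guanylate-binding proteins attack the vacuoles of intracellular microbes. Of 18 genes tested, counting the transcription factor gene Irf1, 16 fell and only Gbp8 rose. The median log2 fold change was -1.59, against -0.02 over all genes. Irgm1 was read at 152, 153 and 157 CPM at 24 h and 13.5, 15.5 and 16.9 CPM at 72 h. The fall of 10.1-fold had an adjusted p of 4.72e-27, and no library bridged the gap. Ifi47 fell from 244 to 19.4 CPM, Gbp2 from 288 to 29.8 CPM and Iigp1 from 96.5 to 2.43 CPM. Irf1 fell from 233 to 102 CPM, whereas Gbp8 rose from 5.61 to 18.7 CPM. The count of 16 falls was the same with each of DESeq2 size factors, no TMM, spike-in sizes, without control 72 h replicate 2 and without the genes of chromosomes X and Y. Tgtp1 and Tgtp2 are near-identical copies that fell 17.7- and 16.2-fold, and their counts are uncertain where reads were divided between them.

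The promoters of these GTPases and of Irf1, which is among the holders counted below, were looked at because the genes moved together. RefSeq (GRCm38.p6) gave a promoter for 11 of the 18, and TTCNNNGAA, the palindromic core bound by STAT factors, occurred on either strand in the 250 bases before the start of 7 of them (63.6%). Over all 27025 genes with a promoter the share was 7.18%, and over the tested genes among them, 9952 in number, 5.88%. Tgtp1 and Tgtp2 are shown as the members holding a match with the largest falls for which a promoter was given, from chr11:48992294-48992366 and chr11:49064253-49064325 on the minus strand, with the match in capitals:
Tgtp1: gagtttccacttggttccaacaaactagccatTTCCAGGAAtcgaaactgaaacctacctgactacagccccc
Tgtp2: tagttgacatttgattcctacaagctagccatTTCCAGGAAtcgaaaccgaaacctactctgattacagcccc
Both stretches hold the same match at nearly the same distance from the start, 120 to 48 and 113 to 41 bases upstream. A match of letters is a description and not a measured binding site.

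Genes that type I interferons induce showed no single direction. Of 31 tested, 18 fell and 10 rose, and 11 had at least 10 CPM at either time. Usp18, which dampens interferon signalling, rose from 14.5 to 36.8 CPM, Stat2 from 27.6 to 52 CPM and Oas3 from 14.7 to 29.7 CPM. Zbp1, a sensor of Z-form nucleic acid, fell from 28.2 to 8.14 CPM, Ifi35 from 56.2 to 24.2 CPM, Ifit3 from 3.96 to 0.538 CPM and Xaf1 from 3.18 to 0.326 CPM, while Oas2, Ifi44 and Rtp4 went from 0.7995 to 0 CPM, from 0.582 to 0 CPM and from 1.99 to 0 CPM. With at least 10 counts required in every library, 16 of these genes were tested, 9 rose, 6 fell and the median turned from -0.57 to 0.42. Genes of MHC class I presentation were balanced, with 7 of 17 up and 7 down. H2-D1 rose from 970.4 to 1793 CPM, B2m had 593 and 591 CPM, and Erap1, which trims peptides, fell from 175 to 70.8 CPM. Psmb10, an immunoproteasome subunit, fell from 46.8 to 23.1 CPM.

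Genes of DNA replication and of mitosis mostly moved in opposite directions. Every gene of DNA replication that passed the test fell, 43 of 44, with a median log2 fold change of -0.99. The exception was Rfc2, a subunit of the clamp loader, at 103 and 92.7 CPM (adjusted p = 0.0522, edgeR). It fell too without control 24 h replicate 3 (adjusted p = 0.0463) and without control 72 h replicate 2 (adjusted p = 0.000545). Mcm2, a subunit of the replicative helicase, was read at 476, 449 and 445 CPM at 24 h and 127, 135 and 126 CPM at 72 h, after 117 CPM at 4 h. It fell by 1.82 on the log2 scale, with all 72 h libraries below those of 24 h (SE 0.05, adjusted p = 2.41e-24). The other subunits Mcm3, Mcm4 and Mcm5 fell 3.04-, 2.99- and 3.23-fold. Pole2, of the leading strand polymerase, fell from 29.2 to 8.59 CPM, Pold2, of the lagging strand polymerase, from 158 to 47 CPM, Chaf1b, of the complex that places histones behind the fork, from 64.6 to 19 CPM, and Cdc6, which loads the helicase, from 112 to 38.8 CPM. With spike-in sizes 38 of 44 fell and none rose.

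Among the 35 replication genes with a RefSeq promoter, TTTCCCGC or TTTGGCGC, letters bound by E2F factors, occurred on either strand of the 250 upstream bases in 6 (17.1%), each promoter counted once. Over all 27025 promoters the share was 1.35%, and over those of tested genes 2.68%. Mcm5 and Cdc6 are shown as the holders with the largest falls, from chr8:75109328-75109399 and chr11:98907981-98908052 on the plus strand of GRCm38.p6, with the match in capitals:
Mcm5: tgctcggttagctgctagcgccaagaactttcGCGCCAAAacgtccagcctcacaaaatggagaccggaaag
Cdc6: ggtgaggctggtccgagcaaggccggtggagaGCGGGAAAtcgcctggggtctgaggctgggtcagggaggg
In both, the capitals are the reverse complement of the motif. Cdc6 fell 2.88-fold.

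Genes of mitosis moved the other way. Of 53 genes of the spindle, kinetochore and cytokinesis, 44 rose and 3 fell, with a median log2 fold change of 0.86. Ccnb2, which encodes cyclin B2, the partner of CDK1 in mitosis, was read at 8.16, 6.42 and 6.82 CPM at 24 h and 69.6, 71.3 and 77.2 CPM at 72 h. It rose 10.2-fold, far beyond the spread of the libraries (log2 fold change 3.35, SE 0.10, adjusted p = 2.26e-23). Psrc1, a spindle protein and p53 target, rose from 1.58 to 74.5 CPM, the centromeric histone Cenpa from 18.2 to 107 CPM, Hmmr from 22.8 to 122 CPM and Nusap1, which bundles spindle microtubules, from 26.6 to 138 CPM. Cdk1, Mad2l1 and Kif20b fell, from 70.8 to 45.9 CPM, from 111 to 83.9 CPM and from 66.8 to 51.3 CPM. Cdk1, the mitotic kinase, thus went against its partner cyclin.

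For 44 mitotic genes a promoter was given. CCAAT, the letters bound by NF-Y, was in 33 of them (75%) against 34.5% of all promoters and 36.7% of those of tested genes, and TTTGAA, the cell cycle homology region, in 15 (34.1%) against 16.3% and 10.8%, both strands searched. Psrc1 and Ccnb2, the holders with the largest rises, are shown from chr3:108383731-108383799 (plus strand) and chr9:70421555-70421607 (minus strand) with CCAAT in capitals:
Psrc1: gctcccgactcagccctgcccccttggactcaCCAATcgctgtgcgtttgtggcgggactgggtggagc
Ccnb2: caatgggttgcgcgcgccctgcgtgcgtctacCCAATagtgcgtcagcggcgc
The Ccnb2 stretch ends at the base before the start. Psrc1 and Ccnb2 rose 47.1- and 10.2-fold.

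Regulators of the cycle had no shared direction. Of 15 G1 cyclins, CDKs and inhibitors, 7 rose and 7 fell, at a median log2 fold change of 0.08. That median was 0.67 to 0.85 when any 1 of the control 24 h libraries was left out, with 16 genes tested. Of 17 E2F and pocket proteins, 7 rose and 9 fell, at a median of -0.38. Cdkn1a, the p53-induced inhibitor p21, was read at 18.4, 19.8 and 19.4 CPM at 24 h and 257, 246 and 249 CPM at 72 h. Its rise of 13.1-fold was seen in every library (adjusted p = 5.88e-30). The CDK4 and CDK6 inhibitor Cdkn2d rose from 14.3 to 134 CPM, Cdkn1b (p27) from 25.7 to 81.6 CPM and Ccnd3, the D cyclin of dividing lymphocytes, from 155 to 552 CPM. Ccnd2, the D cyclin of early activation, fell from 1541 to 722 CPM, Ccne2 from 68.1 to 19 CPM and the phosphatase gene Cdc25a from 148 to 84.8 CPM. E2f1, an activator of S phase genes, fell from 90.6 to 26.1 CPM and the repressor E2f6 from 49.6 to 19.5 CPM, while E2f2, Rb1, the retinoblastoma protein, and its relative Rbl2 rose, from 33.5 to 76.1 CPM, from 20.3 to 56.4 CPM and from 18.4 to 52.7 CPM.

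Histone genes that are expressed with DNA replication rose in 46 of 65 and fell in 7. Hist1h2bg rose from 177 to 556 CPM, Hist1h2bf from 6.23 to 55.6 CPM, Hist3h2ba from 2.005 to 21.2 CPM, Hist1h3d from 19.8 to 98.3 CPM and Hist1h4i from 63.8 to 198 CPM, and Hist1h4a fell from 345 to 163 CPM. These mRNAs lack a poly(A) tail in dividing cells, whether the library kit selected such tails is not given in the sources used here, and copies within a cluster are near identical. Their values are therefore uncertain as levels of single genes.

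MYC and the machinery that makes ribosomes fell together. Myc was read at 806, 767 and 778 CPM at 24 h and 194, 200.3 and 196 CPM at 72 h, after 1962 CPM at 4 h. It fell 3.99-fold with no overlap (log2 fold change -1.996, SE 0.04, adjusted p = 3.78e-28), and its partner Max fell from 179 to 64.7 CPM. The MXD proteins, which compete with MYC for MAX, rose. Mxi1 rose from 10.8 to 92 CPM, Mxd4 from 6.68 to 50.01 CPM, Mxd1 from 13.4 to 50.4 CPM and Mxd3 from 2.69 to 10.4 CPM. Mycn, a MYC relative, rose from 2.04 to 12.9 CPM. In the family of 12, 6 rose and 4 fell.

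Of 57 ribosome biogenesis factors, 56 fell and none rose, with a median log2 fold change of -1.49. Polr1b, a catalytic subunit of RNA polymerase I, which transcribes ribosomal RNA, was read at 220.0, 218 and 217 CPM at 24 h and 31.7, 31.7 and 30.8 CPM at 72 h. The fall of 6.96-fold was far larger than the spread (SE 0.05 on the log2 scale, adjusted p = 6.52e-29). Nolc1, a nucleolar phosphoprotein, fell from 545 to 92.2 CPM, Utp20, of the complex that processes the small subunit RNA, from 333 to 48.6 CPM, Grwd1 from 159 to 28.2 CPM, and Fbl, the methylase fibrillarin, from 542 to 124 CPM. Npm1, the abundant nucleolar protein nucleophosmin, fell least among those that passed, from 4025 to 3019 CPM. Polr1c, shared by polymerases I and III, had 139 and 137 CPM (adjusted p = 0.731, edgeR). CACGTG, the E-box bound by MYC, was in 4 of the 49 promoters given (8.16%), against 6.05% of all promoters and 8.49% of those of tested genes.

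The ribosomal proteins themselves did not follow. Of 86 genes of cytosolic ribosomal proteins, 48 rose and 10 fell, by small amounts, with a median log2 fold change of 0.22. With spike-in sizes 10 rose and 6 fell, at a median of 0.13. Rpl28 rose from 1306 to 2054 CPM, Rpsa from 2856 to 4331 CPM and Rpl13a from 114 to 206 CPM, and Rpl7l1, a factor of assembly rather than of the ribosome, fell from 247 to 96.9 CPM. Mitochondrial ribosomal proteins fell in 56 of 78 and rose in 9, with Mrpl12 from 273 to 99.8 CPM, Mrpl20 from 99 to 33.4 CPM, Mrpl41 from 82.1 to 29 CPM and Mrpl3 from 88.7 to 25.4 CPM.

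Initiation factors of translation fell in 30 of 42 and rose in 6, a list that holds the sex-linked Eif2s3y and Eif2s3x. Without the genes of chromosomes X and Y, 28 of 39 fell and 5 rose. Eif2s1, the alpha subunit of eIF2, was read at 311, 335 and 334 CPM at 24 h and 106, 85.1 and 113 CPM at 72 h and fell by 1.68 on the log2 scale (SE 0.07). The groups stood well apart. The helicase Eif4a1 and the scaffold Eif4g1 fell from 1555 to 587 CPM and from 1285 to 490.3 CPM, Eif6, which keeps the large subunit from joining too early, from 421 to 134 CPM, and Eif4ebp1, an inhibitor of cap binding, rose from 92.9 to 209 CPM. Of 20 aminoacyl tRNA synthetases, 6 rose, Vars from 474 to 771 CPM and Aars from 359.8 to 568 CPM, and 11 fell, Rars from 266 to 108 CPM, Kars from 414 to 244 CPM and Hars from 234 to 122 CPM. Of 14 amino acid transporters tested, 6 rose and 7 fell, with a median log2 fold change of -0.12. Both chains of the leucine carrier rose, Slc7a5 from 566 to 1226 CPM and Slc3a2 from 263 to 695 CPM. The neutral amino acid carrier Slc1a4 rose from 23.1 to 52.2 CPM and the cystine carrier Slc7a11 from 6.92 to 15.4 CPM. The glutamine carrier Slc1a5 fell from 401 to 156 CPM.

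**Figure D4:**
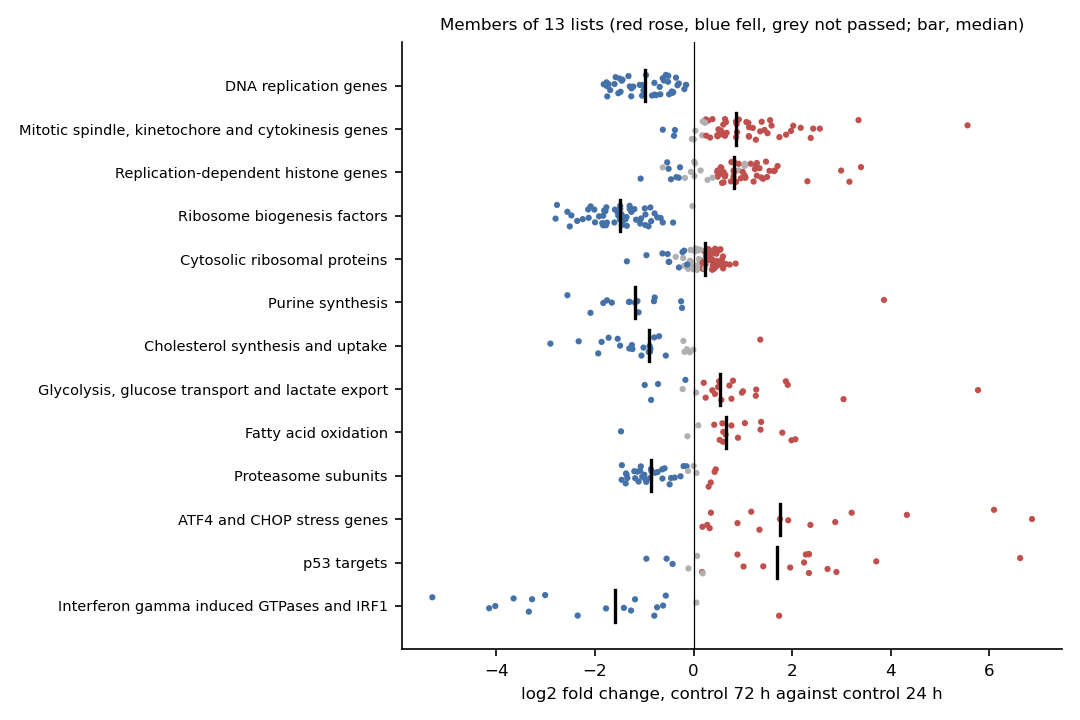
Log2 fold change from control 24 h to control 72 h for each tested member of 13 lists, with the list median as a black bar. Replication genes lie below 0 with a median of -0.99 and mitotic genes mostly above with 0.86, while ribosome biogenesis factors have a median of -1.49 and cytosolic ribosomal proteins one of 0.22.

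Most enzymes that make nucleotides fell. In purine synthesis 14 of 15 fell, with a median log2 fold change of -1.19. Gart, which carries out several of the steps to the purine ring, was read at 581, 578 and 599 CPM at 24 h and 99.3, 103 and 96.6 CPM at 72 h. It fell by 2.56 on the log2 scale, and the libraries of both times were far from each other (SE 0.05, adjusted p = 5.66e-29). Ppat, the committing enzyme, fell from 297 to 83.5 CPM, Pfas from 423 to 99.7 CPM, Atic, which closes the ring, from 344 to 102 CPM, Adsl from 232 to 73.8 CPM, Adss from 292 to 128 CPM and Impdh1, on the branch to GTP, from 165 to 95.9 CPM. The 1 rise was that of Adssl1, a muscle form of adenylosuccinate synthase, from 0.536 to 7.86 CPM. Pnp, which splits purine nucleosides and is not in this list, fell from 23.9 to 9.23 CPM.

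On the pyrimidine side, Umps, the enzyme of the last steps to UMP, was read at 259, 277 and 282 CPM at 24 h and 58.4, 58.3 and 57 CPM at 72 h. It fell 4.7-fold with no overlap (adjusted p = 7.62e-27), with Cad from 674 to 187 CPM and Dhodh from 47.1 to 21.7 CPM. Rrm2 and Tyms, which supply deoxynucleotides, fell from 239 to 73.6 CPM and from 95 to 32.2 CPM. Samhd1, which degrades deoxynucleotides, rose from 143 to 589 CPM, as did Rrm2b, the p53-induced subunit of ribonucleotide reductase, from 15.6 to 31.3 CPM. All 21 genes of this list passed, 14 downward. In one-carbon metabolism Mat2a, which makes S-adenosylmethionine, was read at 583, 601 and 614 CPM at 24 h and 37.6, 39.6 and 38.6 CPM at 72 h. The fall of 15.6-fold was the largest of the 15 tested (adjusted p = 6.11e-33). Shmt1 and Mthfd1, cytosolic folate enzymes, fell from 227 to 28.9 CPM and from 343 to 61.6 CPM, while of their mitochondrial counterparts Shmt2 fell from 652 to 506 CPM and Mthfd2 went from 319 to 326 CPM, which did not pass (adjusted p = 0.539, edgeR). Aldh1l2, a mitochondrial folate enzyme, rose from 2.85 to 63.8 CPM.

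Glycolysis genes rose in 18 of 24 and fell in 4. Slc2a3, the glucose transporter GLUT3, was read at 49, 50.5 and 53.4 CPM at 24 h and 185, 190.5 and 184 CPM at 72 h. It rose 3.66-fold, beyond the spread (adjusted p = 2.80e-23), and Slc2a1 (GLUT1) changed little, from 139 to 165 CPM, and did not pass with spike-in sizes (adjusted p = 0.466, edgeR). Aldoc, an aldolase, rose from 1.13 to 61.6 CPM, its relative Aldoa from 960.2 to 2318 CPM, Eno1, an enolase, from 1270.1 to 2544 CPM, and the lactate exporter Slc16a3 from 30.2 to 114 CPM. Txnip, an arrestin that lowers glucose uptake, rose from 42.7 to 352 CPM. Ldha, Pfkl and the exporter Slc16a1 fell, from 2607 to 1582 CPM, from 218 to 120.1 CPM and from 332 to 167 CPM. In the pentose phosphate pathway 4 of 7 fell and 3 rose, with a median log2 fold change of -0.69. Among the falls were Pgd, which makes NADPH, from 211 to 57.3 CPM, and Tkt from 505 to 249 CPM. Rpia, which makes ribose phosphate, fell from 76.9 to 34.8 CPM, and the X-linked G6pdx, the first enzyme, from 93.7 to 58 CPM. Without the genes of chromosomes X and Y, 3 of 6 fell and 3 rose, at a median of -0.38.

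Mitochondrial genes were mixed. Of 25 genes of the TCA cycle, 14 fell, with Idh3a from 156 to 58.4 CPM and Fh1 from 137 to 54.9 CPM, and 8 rose, with Idh1, the cytosolic isocitrate dehydrogenase, from 4.37 to 10.9 CPM and Pcx, which refills the cycle from pyruvate, from 5.83 to 32 CPM. The 77 nuclear subunits of the respiratory chain counted 28 rises and 30 falls at a median log2 fold change of 0.01. Ndufa4 fell from 231 to 72.4 CPM, Ndufv3 rose from 30.6 to 105.2 CPM, and the tissue forms Cox6a2 and Cox6b2 rose from 0.426 to 24.5 CPM and from 0.224 to 14.1 CPM. Of 10 mRNAs encoded in the mitochondrial genome, 6 fell. mt-Nd1, of complex I, was read at 1548, 1444 and 1547 CPM at 24 h and 643, 341 and 716 CPM at 72 h, and mt-Co1, of complex IV, at 4326, 4428 and 4656 CPM at 24 h and 5064, 2848 and 5662 CPM at 72 h. The first fell with no overlap, and the second did not pass, its 72 h libraries lying on both sides of those of 24 h. mt-Nd2 and mt-Nd5, of complex I, fell from 706 to 253 CPM and from 722 to 403 CPM, and mt-Cytb, of complex III, from 1281 to 563 CPM. In mt-Nd1 and mt-Co1, control 72 h replicate 2, the library with the low mitochondrial share, was the lowest. Without that library, mt-Co1 rose by 0.26 on the log2 scale (adjusted p = 2.44e-05), and 7 of 11 fell and 1 rose at a median of -0.63.

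Lipid genes showed opposite directions for cholesterol synthesis and for fatty acid oxidation. Cholesterol synthesis and uptake fell in 19 of 25 genes and rose in 1, with a median log2 fold change of -0.91. Hmgcs1, an early enzyme of the mevalonate pathway, was read at 394, 419 and 416 CPM at 24 h and 102, 108 and 113 CPM at 72 h. It fell 3.82-fold without overlap (adjusted p = 3.07e-25). Idi1 fell from 149 to 19.7 CPM, Cyp51 from 527 to 145 CPM and Hsd17b7 from 53.7 to 10.8 CPM. Srebf2, whose product switches these genes on, had 451 and 449.7 CPM (adjusted p = 0.949, edgeR). A separate list of cholesterol efflux and esterification was balanced, with 4 of 9 genes rising and 4 falling. Its median log2 fold change was -0.10, or 0.29 without control 24 h replicate 1. In this list the exporters Abcg1 and Abca1 rose from 19.6 to 94.2 CPM and from 5.81 to 19.2 CPM. The esterifying enzyme Soat2 rose from 5.2 to 44.1 CPM. Lpcat3, a phospholipid remodelling enzyme in the same list, fell from 61.3 to 40.6 CPM. TCACNCCAC, the sterol regulatory element, was found on either strand in 1 of 17 promoters given (5.88%, against 1.04% of all and 0.894% of those of tested genes), that of Hmgcs1 at chr13:119690182-119690254, plus strand, shown with the match in capitals:
Hmgcs1: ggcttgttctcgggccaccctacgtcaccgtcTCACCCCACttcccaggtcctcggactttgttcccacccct
The 250 bases searched end at the start of each gene.

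Fasn, the fatty acid synthase, was read at 1317, 1259 and 1237 CPM at 24 h and 249, 312 and 241 CPM at 72 h. It fell 4.77-fold with no overlap (adjusted p = 3.97e-24), with Acaca and Acly, which supply its substrates, from 336 to 107 CPM and from 547 to 189 CPM. The desaturases Scd1 and Scd2 rose, from 46.4 to 185 CPM and from 543 to 1889.9 CPM. Over the 16 genes of synthesis and desaturation, 9 rose and 6 fell. Fatty acid oxidation rose in 14 of 17 genes. Cpt1a, the gate of fatty acid entry to mitochondria, rose from 15 to 38.4 CPM, Acadl from 33.9 to 142 CPM, Eci2 from 15.5 to 61.7 CPM and Decr1 from 10.8 to 37.6 CPM. The coactivator Ppargc1b was the 1 gene of this list that fell, from 17.3 to 6.34 CPM.

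Genes of the ATF4 and CHOP stress list, Atf4 itself included, rose without exception among the 15 tested, at a median log2 fold change of 1.75. With spike-in sizes 11 of the 15 rose and none fell. ATF4 is translated when eIF2 is phosphorylated, as in amino acid shortage, and raises genes of amino acid supply and, with CHOP, of cell death. Ddit3, which encodes CHOP, was read at 10.8, 7.38 and 6.92 CPM at 24 h and 162, 171 and 173 CPM at 72 h. It rose 20.1-fold with no overlap (log2 fold change 4.33, SE 0.10, adjusted p = 9.10e-26). Asns, the asparagine synthetase, was read at 63, 66.5 and 64.3 CPM at 24 h and 237, 263 and 234 CPM at 72 h and rose 3.79-fold, likewise apart (adjusted p = 1.30e-23). Nupr1, a stress-induced chromatin protein, rose from 0.503 to 59.4 CPM, Ddit4, an inhibitor of mTORC1, from 56.2 to 519 CPM, Trib3, a pseudokinase, from 30.8 to 159.9 CPM and Vldlr from 0.285 to 19.9 CPM. Atf4 mRNA itself rose little, from 486 to 551 CPM, and did not pass with spike-in sizes (adjusted p = 0.676, edgeR).

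TGATGNAA, the composite element bound by ATF4 with C/EBP factors, was in 3 of 14 promoters of this list (21.4%) against 3.53% of all promoters and 1.92% of those of tested genes, both strands searched. Nupr1 and Asns are shown as the holders with the largest rises, from chr7:126625541-126625612 and chr6:7693210-7693264 on the minus strand, with the match in capitals:
Nupr1: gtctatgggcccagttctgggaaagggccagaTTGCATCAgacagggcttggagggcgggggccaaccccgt
Asns: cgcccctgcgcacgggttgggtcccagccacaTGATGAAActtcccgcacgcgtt
In Nupr1 the capitals are the reverse complement of the motif. The Asns stretch ends at the base before the start.

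Genes of the NRF2 response, which answers oxidative stress, gave 7 rises and 5 falls in 15. Nfe2l2, which encodes NRF2, rose from 26.8 to 53 CPM. The ferritin chains Fth1 and Ftl1 rose from 176 to 569 CPM and from 272 to 677 CPM and the haem oxygenase Hmox1 from 4.08 to 18.6 CPM, with Srxn1, which repairs peroxiredoxins, from 2.7 to 10.1 CPM, while Prdx1, a peroxiredoxin, and Gsr, the glutathione reductase, fell from 432 to 119 CPM and from 119 to 50.03 CPM. The list median went from 0.95 to 0.21 without control 72 h replicate 3. In the endoplasmic reticulum 14 of 27 genes rose and 8 fell, or 8 and 5 with spike-in sizes. Ern1, the sensor IRE1, rose from 8.05 to 49.2 CPM, Sel1l, Edem1 and Edem2, of the pathway that removes misfolded proteins, from 73.9 to 253 CPM, from 174 to 356 CPM and from 26 to 97.1 CPM, and Dnajb9 and Pdia3 fell from 18.9 to 10.5 CPM and from 503 to 286 CPM.

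Heat shock chaperones of the cytosol and mitochondria, with the CCT ring, fell in 18 of 21. Hspa8, the constitutive HSP70 that folds new proteins, was read at 3730.2, 3901 and 3989 CPM at 24 h and 763, 731 and 848 CPM at 72 h. It fell 4.96-fold without overlap (adjusted p = 2.48e-27). Hsph1 fell from 335 to 48.8 CPM, the mitochondrial chaperonin Hspd1 from 1532 to 443 CPM and Cct6a, of the CCT ring that folds actin and tubulin, from 634 to 188 CPM. GAANNTTC, letters bound by heat shock factors, was found in 4 of 15 promoters of this list (26.7%) against 6.78% of all promoters and 4.93% of those of tested genes. Proteasome subunits fell in 30 of 37, Psmd6 from 187 to 67.8 CPM, Psmd12 from 179 to 68.8 CPM, Psmc5 from 216 to 83.8 CPM and Psmd1 from 261 to 95.2 CPM, with the immunoproteasome subunit Psmb8 among the 4 that rose, from 253 to 346 CPM (adjusted p = 0.0862 with spike-in sizes). Genes of autophagy and lysosomes rose in 25 of 34. Laptm5, a lysosomal membrane protein that lowers TCR levels, was read at 258, 242 and 256 CPM at 24 h and 889, 795 and 880.5 CPM at 72 h and rose 3.39-fold with no overlap. The cargo receptor Sqstm1 rose from 112 to 376 CPM, Npc1, which moves cholesterol out of lysosomes, from 26.4 to 95.3 CPM, and Map1lc3a from 0.676 to 10.9 CPM. Grn, the lysosomal progranulin, rose from 5.28 to 33.9 CPM and Atg12, of the autophagosome conjugation system, from 18.1 to 68.5 CPM.

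Targets of p53 rose in 14 of 20 and fell in 3, at a median log2 fold change of 1.69. Besides Cdkn1a, Ccng1, which encodes cyclin G1, was read at 94.4, 99.6 and 103 CPM at 24 h and 376, 392 and 390.2 CPM at 72 h and rose 3.89-fold without overlap (adjusted p = 7.85e-25). Phlda3, an inhibitor of AKT, rose from 4.64 to 34.9 CPM, Gadd45a, a growth arrest gene, from 2.004 to 13.2 CPM, Zmat3 from 30.9 to 157 CPM and Trp53inp1 from 19.3 to 97.5 CPM. Trp53 fell from 138 to 71.2 CPM, and Mdm2, its inhibitor and target, changed from 75.5 to 85.3 CPM, a rise that did not pass without control 72 h replicate 2 (adjusted p = 0.0832) or with spike-in sizes (0.696).

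Genes of cell death and survival went both ways. Of 11 anti-apoptotic genes 3 rose and 4 fell, and the share that passed, 63.6%, was under the 70.8% of all genes. Of 15 BH3-only and effector genes 8 rose and 5 fell, at a median log2 fold change of 0.45. Without control 72 h replicate 2, 8 of 16 rose and 7 fell, at a median of 0.12. Bcl2, which guards mitochondria, was read at 149.9, 138 and 143 CPM at 24 h and 559, 547 and 574 CPM at 72 h. It rose by 1.96 on the log2 scale with no overlap (SE 0.04, adjusted p = 1.96e-26). Bcl2l2 (BCL-W), a relative, rose from 15.5 to 44.1 CPM. Mcl1, another and short-lived one, fell from 319 to 213 CPM, and the NF-kB-induced copies Bcl2a1b and Bcl2a1d, between which reads are hard to divide, from 46.6 to 9.89 CPM and from 29.3 to 4.73 CPM. The BH3-only genes Bbc3 (PUMA), Pmaip1 (NOXA) and Bmf, which oppose BCL2, rose from 10.5 to 53.3 CPM, from 4.72 to 23 CPM and from 0.871 to 8.43 CPM. The BH3-only gene of T cell contraction, Bcl2l11 (BIM), fell from 45.9 to 13.7 CPM. The death receptor Fas rose from 6.9 to 32.4 CPM and Apaf1, the core of the apoptosome, from 34.7 to 78.7 CPM.

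Among genes of DNA methylation and Polycomb, 10 of 14 fell and 3 rose. Dnmt3a, which lays down new methylation in effector cells, was read at 336, 329 and 317 CPM at 24 h and 104, 106 and 102 CPM at 72 h. The fall of 3.15-fold was larger than the spread (adjusted p = 9.23e-24). Dnmt3b fell from 34.7 to 6.03 CPM, Hells, a remodelling helicase needed for methylation, from 289 to 112 CPM, and Dnmt1 and Uhrf1, which copy methylation at the replication fork and are also in the replication list, from 491 to 290.4 CPM and from 564 to 226 CPM. Tet2, which oxidises methylated cytosine, went from 45.2 to 56 CPM (adjusted p = 0.361 with spike-in sizes).

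Most markers of other cells that passed fell. The B cell list summed to 89.9 to 100.2 CPM at 24 h and 46.6 to 48.8 CPM at 72 h, nearly all of it Ighm, from 84.6 to 36.2 CPM. Ms4a1, which encodes CD20 of B cells, went from 0.88 to 0.0557 CPM, and of 10 tested 5 fell and 2 rose. Myeloid and dendritic markers summed to 5.50 to 6.33 CPM at 24 h and 6.60 to 9.42 CPM at 72 h, with 4 of 8 falling and Cd68, a lysosomal gene, rising from 1.89 to 7.999 CPM. S100a9 and Adgre1 had no count at 72 h, and S100a9 lost its call without control 24 h replicate 3 (adjusted p = 0.272) and without each of the 72 h replicates (0.0626 to 0.107). Of the 5 helper and regulatory markers, summing to 19.5 to 21.8 CPM and then 137 to 151 CPM, the rise was that of Zbtb7b and Ikzf4. Zbtb7b, the helper lineage factor ThPOK, was read at 6.37, 4.87 and 4.32 CPM at 24 h and 115, 128 and 115 CPM at 72 h, in libraries where Cd4 stayed at 0.994 CPM. It rose 22.9-fold with no overlap (adjusted p = 6.49e-25). The part of other cells in the changes described above was not tested beyond these values.

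The change from 24 h to 72 h was not the same when asparagine was left out of the medium. The libraries of Asn restriction show the same sex-linked pattern, with Xist at 618 to 681 CPM and no Y-linked count at 24 h, and Xist at most 0.104 CPM at 72 h. A test of the difference between the changes in both media, in the same edgeR fit, passed for 57.2% of the genes, 4390 with a higher and 4117 with a lower change under restriction. Without TMM factors, which moved the median of this difference over all genes by more than 0.1, from -0.04 to -0.25, the split was 3346 to 5261. The medians that follow are on the TMM scale. They are changes and not levels, so a difference may lie at 24 h, at 72 h or at both. Tsc22d3 stood at 12.5 CPM in control and 78 CPM under restriction at 24 h, and at 116 and 44.8 CPM at 72 h. Prf1 stood at 69.3 and 88.3 CPM at 24 h, and at 24.5 and 145 CPM at 72 h.

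DNA replication genes fell in control, while their median under restriction was above 0. The difference passed for all 44, upward in each, and the list median was -0.99 in control against 0.62 under restriction. Rrm2 changed by -1.70 in control and by 1.73 under restriction on the log2 scale (difference 3.43, SE 0.09, adjusted p = 3.87e-24). Mitotic genes had medians of 0.86 and 2.45, and the change was larger under restriction in 52 of 53. Ribosome biogenesis factors had medians of -1.49 and -0.33, with all 57 differing upward. Cholesterol genes stood at -0.91 in control and at 1.27 under restriction, and 24 of 25 differed. Proteasome subunits went from -0.85 in control to 0.25, 34 of 37 differing.

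The ATF4 and CHOP list rose at a median of 1.75 in control and 0.38 under restriction, and the change was smaller under restriction in 9 of 15 genes and larger in 1. Ddit3 changed by 4.33 in control and by 0.75 under restriction (adjusted p of the difference 2.94e-20, edgeR). Asns changed by 1.92 and 1.80, a difference of -0.12 with a standard error of 0.08 that did not pass (adjusted p = 0.187, edgeR). The p53 list had medians of 1.69 and 0.40, with a larger change under restriction in 4 of 20 genes and a smaller one in 11. Other stress lists did not share that direction. The change was larger under restriction in 15 of 27 genes of the endoplasmic reticulum list and smaller in 5. In 18 of 21 heat shock and CCT genes it was larger and in 1 smaller. Of 15 NRF2 genes it was larger in 5 and smaller in 4, a share of 60% that lay near the 57.2% of all genes. In the ATF4 and CHOP list the share that differed was 66.7%.

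Of the effector genes, Gzmb changed by 0.27 in control and 2.31 under restriction (adjusted p of the difference 1.36e-20, edgeR), Ifng by 1.53 and 2.49 (adjusted p = 1.02e-14) and Prf1 by -1.49 and 0.71 (adjusted p = 1.14e-18). Ccl3 changed by -5.35 in control and by -1.50 under restriction (adjusted p = 1.00e-21), and Ccl4 by -4.54 and -1.23 (adjusted p = 1.56e-24). Bcl2 changed by 1.96 in control and by -0.60 under restriction (adjusted p = 6.96e-25). Il24 changed by 6.55 and 8.12 (adjusted p of the difference 0.00142) and Xcl1 by -6.80 and -6.37 (adjusted p = 0.0321). For Slamf6 the difference did not pass. Slamf6 changed by -5.23 and -4.56 (adjusted p = 0.19). A p that misses the threshold does not show that the media acted alike.

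**Figure D5:**
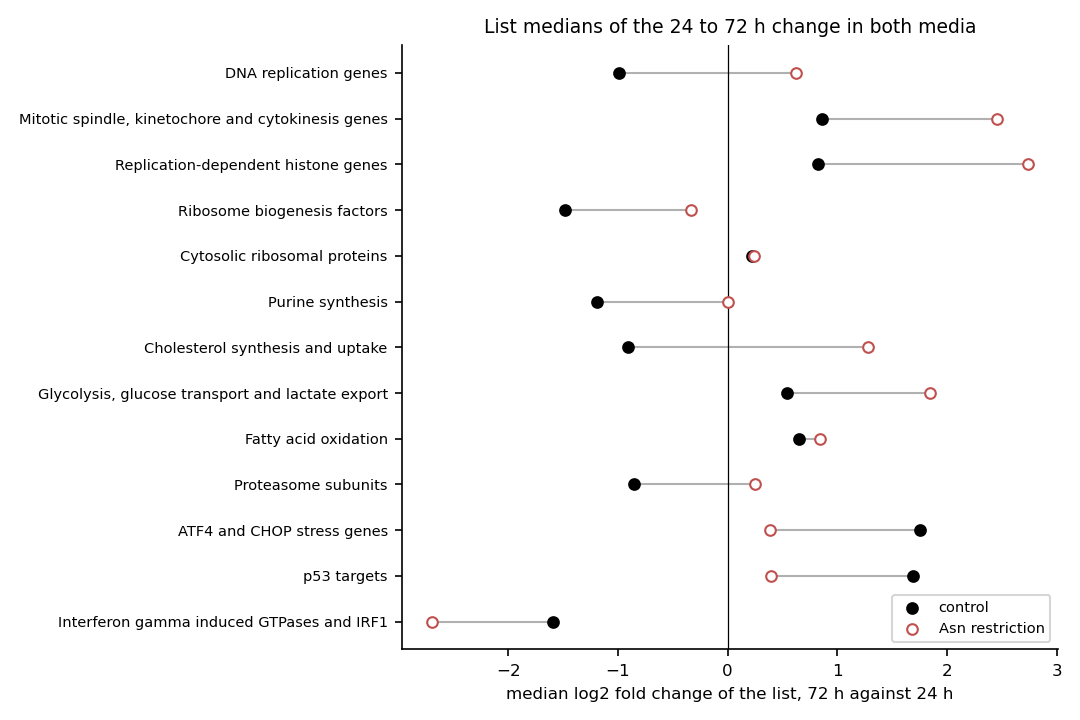
Median log2 fold change from 24 h to 72 h of 13 gene lists in control medium (filled) and under Asn restriction (open). Replication genes stand at -0.99 and 0.62 and cholesterol genes at -0.91 and 1.27, on opposite sides of 0. The medians of the list of interferon gamma GTPases and Irf1 are below 0 in both media.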

How the data were processed

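Total RNA of mouse CD8 T cells was sequenced in 18 libraries, of which the 6 of control 24 h and control 72 h are compared here. Per the submitters' processing notes, reads were handled with Trim Galore (0.60), STAR (2.7) and RSEM (1.31), with mm10 named among the builds. The deposited table holds whole-number counts per gene, as the authors made them, and their use of strand is not given in the sources used here. The 18 normalized columns and the authors' own comparisons of Asn restriction with control (log2 fold changes and adjusted p-values) were not used, and 63 spike-in rows were left out. Genes were filtered with filterByExpr, scaled by TMM and tested in edgeR (4.0.16) with a quasi-likelihood fit of 6 group means to 18 libraries, p-values being adjusted over 14871 genes by the Benjamini-Hochberg method at 0.05. This fit was tested on simulated data. Standard errors are the log2 fold change divided by the root of F. A floor of 3 counts per library stands in for groups at 0 and covers counting error only. Alternatives used DESeq2 (1.42.0), limma (3.58.1) voom, other scalings, filters and left-out libraries.

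Named genes are the 15 largest rises and falls with at least 10 CPM at either time and no overlap, up to 4 per list by size of change, members described by role, and genes the study names. These lists and members were chosen with earlier results of these data known. Gene positions came from GENCODE M21, matching 18508 of 18522 identifiers, and promoters from RefSeq. Some genes the rule selects are not reported here.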

Additional observations from a re-analysis of the deposited data

Results flagged for a closer look

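The change from 24 h to 72 h differed between Asn restriction and control in 8507 genes by edgeR's test of the difference, 57.2% of those tested. For the lists that follow, the median change had opposite signs in the 2 media, the control median was beyond 0.5 on the log2 scale, and the difference passed in over 50% of members, whose number is given. All 44 DNA replication genes differed, as did 20 of 21 genes of deoxynucleotide and pyrimidine synthesis, 15 of 15 of purine synthesis and 6 of 7 of the pentose phosphate pathway. Cholesterol synthesis and uptake counted 24 of 25, the proteasome 34 of 37, heat shock chaperones and the CCT ring 19 of 21 and mitochondrially encoded mRNAs 7 of 10. Among signalling genes, 14 of 23 cytokine receptors, 9 of 15 inhibitory receptors and 10 of 12 members of the MYC, MAX and MXD family differed. Of these cytokine receptors 1 differed upward under restriction and 13 downward. The inhibitory receptors split into 4 upward and 5 downward, and the MYC family into 5 and 5, so neither list had a shared direction. The median difference of the MYC family was 0.19, with list medians of 0.93 in control and -0.21 under restriction. The shares of cytokine receptors and inhibitory receptors, 60.9% and 60%, lay near that of all genes. Under restriction the medians of purine synthesis (0.01), mitochondrially encoded mRNAs (0.03) and inhibitory receptors (0.07) were close to 0. Lists with smaller control medians, such as mitochondrial ribosomal proteins (-0.48 in control, 0.20 under restriction) and E2F and pocket proteins (-0.38 and 0.65), also had opposite signs.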

How the results depend on the processing

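Counts of genes past the threshold stayed within 1.5 times under the other settings run for the time comparison, except that a required change of at least 2-fold left 4913 genes, 2686 up and 2227 down. Leaving out 1 library at a time gave 10073 to 10382 genes (5103 to 5235 up, 4970 to 5147 down). With spike-in library sizes 8116 passed (3751 up, 4365 down), with a median log2 fold change of -0.11 over all genes. For the difference between media, spike-in sizes left 5099 genes, 2119 of them lower under restriction and 2980 higher, and leaving out single libraries gave 8076 to 8536 (4176 to 4435 higher, 3899 to 4101 lower). Same-numbered libraries of 24 h and 72 h deviated with correlations of -0.008, -0.007 and 0.031, so the numbers did not pair them, and not every library correlated best with its own number. A replicate block gave 10426 genes (5259 up, 5167 down) for time and 8409 for the difference between media. Of 375 named genes 366 passed and none reversed, while 70.8% of all genes tested passed. The named genes were largely chosen among those past the threshold with large changes, so this outcome was mostly set by the choice. Of the named genes, 9 lost their call in some setting, namely S100a9 and, with spike-in sizes, Atf4, Cd3e, Gzmb, Mdm2, Psmb8, Slc2a1, Tbx21 and Tet2. That scaling also thinned lists of small changes. It left 2 rises and 5 falls among 13 NF-kB genes, 3 and 7 among 18 of the CD8 coreceptor list, 3 and 6 among 20 tRNA synthetases, 3 and 21 among 42 initiation factors, 2 and 7 among 17 of MHC class I, 4 and 8 among 25 of the TCA cycle, 12 and 21 among 77 respiratory chain subunits, 4 and 45 among 78 mitochondrial ribosomal proteins, 5 and 18 among 31 type I interferon genes, 0 and 27 among 37 proteasome subunits and 0 and 8 among 14 of DNA methylation. With at least 10 counts in every library, the medians of fatty acid synthesis and of the MYC family turned to -0.35 and -0.07. The cause of these changes was not tested. Without X and Y genes and without control 72 h replicate 2, in the 5 other control libraries alone, 9705 of 13233 genes passed, a setting chosen after the data were seen. Genes under the floors of 0.151 CPM at 24 h and 0.199 CPM at 72 h were not detectable at this depth.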
